A study of Mus musculus with 8 samples.

Results

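Cytosolic ribosomal protein genes encode the proteins of the small and large subunits of the ribosome that translates nuclear messages in the cytoplasm. The genes were taken by symbol, Rpl or Rps followed by a number and at most one of the letters a, l or x. The platform annotation gave 68 such genes, 43 of the large and 25 of the small subunit, read by 121 probes, out of 31334 genes tested on arrays of 44290 rows. The RefSeq gene table holds 77 genes that match the rule, and 9 of them were not measured. The symbol rule uses no values of these genes, and all 68 had a ratio in each of the 4 hybridisations. Among the 31334 genes tested, 19087 had a symbol, and each row without a single symbol was counted as a gene of its own.

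In the study, RNA of the nucleus accumbens, a striatal region of the reward system, came from male mice in a conditioned place preference procedure, which pairs a place with an injection. Treated mice were given cocaine (15 mg/kg) on 3 days of it, days 2, 3 and 4, while the others had saline on those same days. The sources used here do not give strain, age or the time from the last injection to dissection. RNA (75 ng) was extracted with a kit made for very small samples, linearly amplified, labelled with Cy5 or Cy3, and a cocaine sample was hybridised against a saline sample on each 2-colour array, with the cocaine sample in Cy5 on 2 arrays and the saline sample in Cy5 on the other 2. Each title names 1 cocaine and 1 saline code, so n was 4 cocaine-saline pairs. The design text speaks of more measurements than the 4 hybridisations analysed here, and nothing says whether a code is 1 animal or several. Each array was scanned on an Axon and an Agilent scanner, and the 8 scans were averaged to 4 hybridisations.

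A ribosomal protein is made in step with its partners, because each ribosome takes up about one copy of nearly all of them. Their messages belong to the most abundant in most cells, brain cells included, and most begin with a 5′ terminal oligopyrimidine (TOP) tract, a C followed by further C or T bases, through which the kinase mTOR controls how strongly they are translated. In neurons, ribosomal proteins are also made near synapses. Translation control of this kind need not alter the amount of message, and the arrays measured message only.

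The deposited values were read as log2 ratios of cocaine over saline. The labels leave the base of the logarithm and that direction unsaid, so both are assumptions. The values show only a common direction, through the scanner difference (Axon minus Agilent), which belongs to the dyes. Across rows it correlated at 0.514 and 0.517 between hybridisations of one orientation, and at -0.542 to -0.492 between orientations. That happens where ratios of swapped dyes have been turned to a common treatment direction. Columns all holding saline over cocaine would give the same correlations. The signs of the cocaine and dye coefficients therefore rest on the assumed reading. Gene names rest on a layout of rows against probes that was inferred from the data, under which the Cy5 over Cy3 ratio of 7325 probe pairs with a shared accession had a correlation of 0.497, against -0.007 row by row. The files hold no intensities, so neither the level of a ribosomal protein message nor the defining markers of accumbens cells could be checked as a level. Scans were median-centred and probes of a gene averaged. A model of a cocaine coefficient plus a dye coefficient (Cy5 over Cy3) was fitted to all genes in limma, with Benjamini-Hochberg adjustment over all of them. The number of arrays limits the precision. The variance of each gene was moderated by limma towards that of all genes, with 15.9 prior against 2 residual degrees of freedom. The p-values therefore measure the spread between these 4 pairs mostly as pooled over all genes. That spread may in part be technical.

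The start sequences are shown because a pyrimidine tract near the start of the message is a known feature of many of these genes. Of the 68 genes, 55 had an entry in the RefSeq table of start regions (GRCm38.p6). The windows run from 30 bases before to 20 bases after the annotated start, with the C-led run of C and T nearest to that start in capitals. Rps18, Rps6, Rpl28 and Rps10 have it close to the start, Rpl4 has it upstream of the annotated start, and Rpl3l, a muscle paralogue of Rpl3, has none.
Rps18 (chr17:33955646-33955695, minus strand): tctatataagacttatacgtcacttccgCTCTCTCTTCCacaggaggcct
Rps6 (chr4:86857348-86857397, minus strand): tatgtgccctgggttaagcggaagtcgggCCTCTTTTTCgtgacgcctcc
Rpl28 (chr7:4792935-4792984, plus strand): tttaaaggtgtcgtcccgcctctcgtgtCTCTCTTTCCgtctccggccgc
Rps10 (chr17:27635225-27635274, minus strand): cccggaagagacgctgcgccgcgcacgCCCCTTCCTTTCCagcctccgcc
Rpl4 (chr9:64173357-64173406, plus strand): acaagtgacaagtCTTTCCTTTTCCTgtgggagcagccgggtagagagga
Rpl3l (chr17:24727796-24727845, plus strand): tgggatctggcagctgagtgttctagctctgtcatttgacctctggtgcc

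A sense-strand run of at least 6 C or T bases that begins with C lay in this window in 39 of 55 ribosomal protein genes (70.9%), against 39.3% of all 27025 genes of the table. The letters CTCTTT on the sense strand of the window, which such a run can contain, were found in 9 of the 55 (16.4%), against 2.35% of all genes. CTTCCG, a core that ETS family factors bind, was read on either strand over the 300 bases of each entry and was found in 39 of 55 (70.9%), against 18.8%. The letters of CTTCCG can overlap a pyrimidine run. GGGCGG, the GC box bound by Sp1, was read in the same way and was found in 31 of 55 (56.4%), against 38.2%. A gene with several annotated starts was counted once if any of them matched. These matches describe sequence only.

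Cocaine and saline accumbens did not differ detectably in any ribosomal protein message. None of the 68 genes passed limma's adjusted p of 0.05 in either direction (0 higher, 0 lower), where 0.0255% of all genes passed (0.00319% higher, 0.0223% lower). None had an unadjusted limma p below 0.05 either, against 6.04% of all genes, and the lowest adjusted limma p among the members was 0.84. The 95% confidence interval of the cocaine coefficient included 0 for all 68 genes. It also stayed within -1 and 1 on the log2 scale for all 68, with the outermost bounds at -0.55 (Rpl39l) and 0.77 (Rpl4), so the intervals leave room for modest differences in either direction.

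The cocaine coefficients lay close together and mostly just above 0. The median over the 68 genes was 0.15, against 0.03 over all genes tested, and 66 of 68 were above 0, against 56.6% of all genes. Over the 19087 genes with a symbol the median was 0.045, and 11441 were above 0. The members' coefficients had a standard deviation of 0.088 across genes, smaller than the median limma standard error of 0.17 of a single gene. The large and small subunits had medians of 0.16 and 0.15. This placement above 0 depended on the normalization: after a loess fit of each scan along the dye profile (the average Cy5 over Cy3 ratio, described with the processing) the median was -0.0032, and 33 of 68 genes were above 0, against 49.8% of all genes. When the scans were scaled to equal spread the median was 0.054, with 53 of 68 above 0, and without saline in Cy5 replicate 1 it was 0.073, with 56 of 68 above 0.

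**Figure D1:**
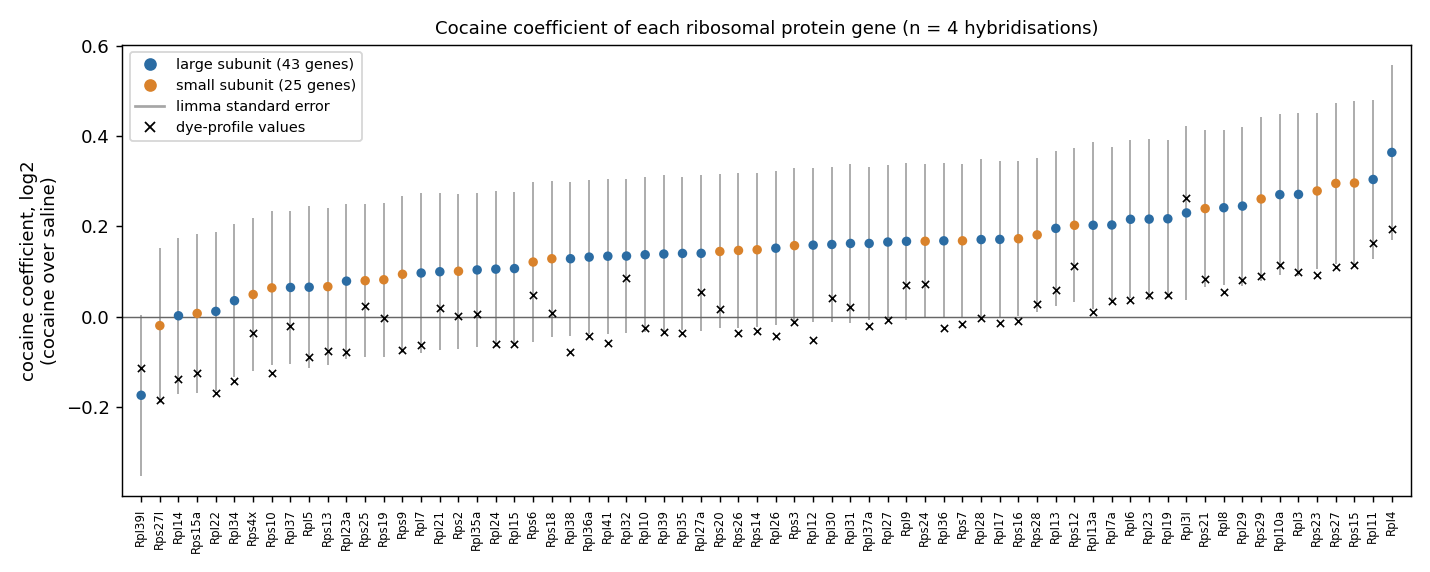
Cocaine coefficient (log2, cocaine over saline, vertical axis) of each of the 68 ribosomal protein genes, ordered along the horizontal axis; points are limma coefficients after median centring (blue large subunit, orange small subunit), bars are limma standard errors over 4 hybridisations, and crosses are the coefficients in dye-profile values. The points run between -0.17 (Rpl39l) and 0.36 (Rpl4), and 33 of the 68 crosses lie above 0.

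The members of smallest p for cocaine came from both subunits. Rpl4, a large-subunit protein with a long loop that lines the exit tunnel of the nascent chain, stood at 1.38 and 1.96 in the 2 hybridisations with cocaine in Cy5, and at -0.47 and -1.42 in the 2 with saline in Cy5 (log2 ratios). The orientations did not overlap, and the ratio was positive in one orientation and negative in the other. Its cocaine coefficient was 0.36 ± 0.19 (limma standard error, n = 4, limma adjusted p = 0.84), and 0.19 ± 0.12 in dye-profile values.

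Rpl11 and Rpl5 carry the 5S ribosomal RNA into the large subunit and, when free, bind and inhibit Mdm2, the ligase of p53. Rpl11 had log2 ratios of 1.12 and 1.47 with cocaine in Cy5 and of -0.45 and -0.93 with saline in Cy5, and a cocaine coefficient of 0.30 ± 0.18 (limma adjusted p = 0.858). Rpl5 had log2 ratios of 1.03 and 1.51 with cocaine in Cy5 and of -0.89 and -1.40 with saline in Cy5, and a coefficient of 0.065 ± 0.180 (limma adjusted p = 0.97). Neither gene of this pair passed, and their coefficients differed by less than the sum of their standard errors.

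The others among the 10 of smallest p, all with coefficients above 0, were 4 of the small and 4 of the large subunit. On the small subunit these were Rps27 at 0.30 ± 0.18, Rps15 at 0.30 ± 0.18, Rps23, which sits at the decoding centre, at 0.28 ± 0.17, and Rps29 at 0.26 ± 0.18. Rps27 had log2 ratios of 1.86 and 1.52 with cocaine in Cy5 and of -0.80 and -1.41 with saline in Cy5, so the orientations lay apart in it as in Rpl4. On the large subunit they were Rpl10a at 0.27 ± 0.18, Rpl3, which reaches towards the peptidyl transferase centre, at 0.27 ± 0.18, Rpl8 at 0.24 ± 0.17 and Rpl29 at 0.25 ± 0.18. Their limma adjusted p-values all lay above that of Rpl4.

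Other core members stood lower in that order. Rps6, the substrate of the S6 kinases downstream of mTOR, had a cocaine coefficient of 0.12 ± 0.18, and Rpl22, a large-subunit protein that also binds other RNAs, one of 0.011 ± 0.176. The panel genes Rps3, at the entry of the messenger channel, and Rpl10, which has a loop near the P site, stood at 0.16 ± 0.17 and 0.14 ± 0.17. A list of 13 of the genes whose human counterparts are linked to Diamond-Blackfan anaemia, an inherited failure of red cell production, had a median coefficient of 0.15. All 13 were above 0, as were all 65 members other than Rpl39l, Rps27l and Rpl3l, whose median was also 0.15. Of the 13, 0 passed limma's adjusted p of 0.05, where 0.0255% of all genes did.

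Rpl39l, Rps27l and Rpl3l are paralogues whose symbols end in l, and these included the only 2 coefficients below 0. Rpl39l, a copy of Rpl39 expressed mainly in testis, had log2 ratios of -1.056 and -1.196 with cocaine in Cy5 and of 1.10 and 0.45 with saline in Cy5, the reverse of the core members. Its cocaine coefficient was -0.17 ± 0.18 (limma adjusted p = 0.917), against 0.14 ± 0.18 for Rpl39. Rps27l, a p53 target, stood at -0.020 ± 0.171 (limma adjusted p = 0.991), against 0.30 ± 0.18 for Rps27. Rpl3l stood at 0.23 ± 0.19 (limma adjusted p = 0.9), against 0.27 ± 0.18 for Rpl3.

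The ribosomal protein genes differed far more between the dye orientations than between cocaine and saline. The median over the 68 genes was 1.28 and 1.47 (log2 ratio) in replicates 1 and 2 with cocaine in Cy5, and -0.85 and -1.30 in replicates 1 and 2 with saline in Cy5. For 66 of 68 genes both cocaine in Cy5 ratios were above 0 and both saline in Cy5 ratios were below 0. The share of all genes with that pattern was not counted. Over all genes, hybridisations of opposite orientation correlated at -0.888 to -0.752, so a reversal between orientations was not particular to the members. The dye coefficient passed limma's adjusted p of 0.05 towards Cy5 for 64 of 68 genes, where 34.5% of all genes did, and towards Cy3 for 1 gene, Rpl39l, where 43.4% of all genes did. Its median was 1.26 over the members, against -0.19 over all genes tested and 0.14 over genes with a symbol. Of the 19087 genes with a symbol, 8023 passed towards Cy5 and 6482 towards Cy3. With none of the members did the centred ratio keep 1 sign in all 4 hybridisations, against 1.84% of all genes.

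**Figure D2:**
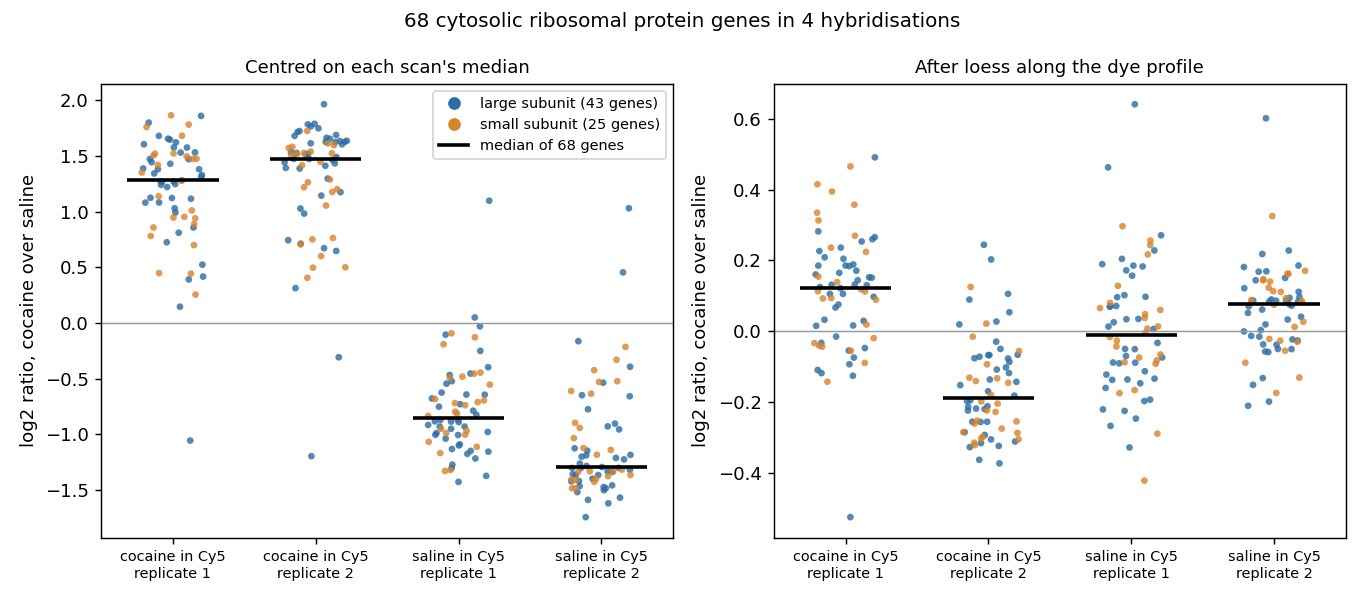
Log2 ratio of cocaine over saline (vertical axis) of the 68 ribosomal protein genes in the 4 hybridisations (horizontal axis), after median centring (left) and after loess along the dye profile (right, on its own scale); points are genes, coloured by subunit, and black bars are medians. On the left the cocaine in Cy5 medians are 1.28 and 1.47 and the saline in Cy5 medians -0.85 and -1.30; on the right the medians are 0.12, -0.19, -0.010 and 0.077.

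The dye coefficient varied among the members, with a standard deviation of 0.46 across genes. It exceeded 1 on the log2 scale in 47 genes, lay between 0 and 1 in 19 and was below 0 in 2, and the interquartile range was 0.94 to 1.37. The highest were Rpl12 at 1.67 ± 0.17, which forms the base of the ribosomal stalk, Rpl38 at 1.60 ± 0.17, Rpl26 at 1.53 ± 0.17, Rpl13a at 1.51 ± 0.19 and Rpl41, the smallest ribosomal protein, at 1.48 ± 0.17. The lowest were Rpl39l at -0.95 ± 0.18 (limma adjusted p = 0.00016), Rpl3l at -0.31 ± 0.19 (0.146), Rpl32 at 0.23 ± 0.17 (0.22), Rps25 at 0.25 ± 0.17 (0.183) and Rps19 at 0.39 ± 0.17 (0.0457). Rpl3l, Rpl32 and Rps25 were the 3 members that passed in neither direction. The widely expressed paralogue Rps27l, at 1.30 ± 0.17, was close to Rps27 at 1.40 ± 0.18, while Rpl39l and Rpl3l lay more than 1 log2 unit below Rpl39 (1.33 ± 0.18) and Rpl3 (1.36 ± 0.18).

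Among genes with low values, the probes often differed. Probes annotated with a RefSeq mRNA accession (98 probes of 68 genes) had a median dye coefficient of 1.33, and 88 of them were above 1. Probes annotated with another accession, mostly that of a cDNA clone (23 probes of 20 genes), had a median of 0.27, with 4 above 1 and 10 below 0. A fit on all probes gave every member probe the same standard error of 0.20, so its p-values hold none of a probe's own spread. In that fit 94 of 98 and 9 of 23 probes of the 2 kinds passed limma's adjusted p of 0.05 towards Cy5. Of all probes 38.5% did so. Towards Cy3, 2 of 98 and 5 of 23 passed, where 40.7% of all probes did.

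Within single ribosomal protein genes the same difference was seen. Probes of other genes were not split by accession, so whether the difference is particular to the members was not tested. All 20 genes with a probe of another accession also had a RefSeq mRNA probe, and in 18 of them every RefSeq mRNA probe had a higher dye coefficient than every other probe. In 19 of 20 the mean over RefSeq mRNA probes lay further towards Cy5 in each of the 4 hybridisations. The exception was Rpl10, at 1.202 and 1.228, and Rps19 had clone probes on either side of its RefSeq mRNA probe, at 1.36, 0.91 and -1.10. For Rps6 the RefSeq mRNA probe gave 1.33 and 1.68 with cocaine in Cy5 and -1.06 and -1.42 with saline in Cy5, while its clone probe gave -0.44 and -0.15 with cocaine in Cy5 and 0.88 and 0.14 with saline in Cy5. The averaged dye coefficient of Rps6, 0.48 ± 0.18, therefore describes neither probe.

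**Figure D3:**
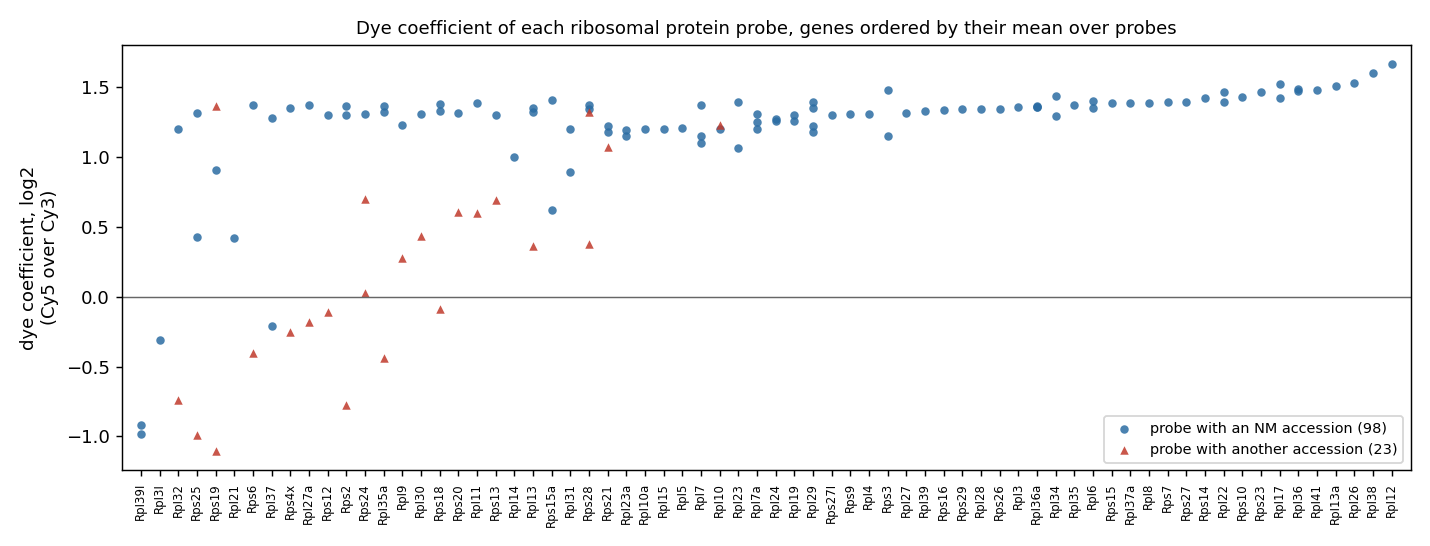
Dye coefficient (log2, Cy5 over Cy3, vertical axis) of each of the 121 ribosomal protein probes, with the 68 genes ordered along the horizontal axis by their mean; blue circles are 98 probes with a RefSeq mRNA (NM) accession and red triangles 23 probes with another accession. The blue circles gather near their median of 1.33, and 10 of the 23 red triangles lie below 0.

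RefSeq mRNA probes of 1 gene mostly lay close together, with exceptions. In the 25 genes with several of them, the range of the dye coefficient had a median of 0.067 log2 units and was under 0.2 in 17. The 3 Rpl36a probes gave 1.36 each, and the 4 Rpl29 probes gave between 1.18 and 1.39. The widest range was that of Rpl37, whose 2 probes of the same accession stood at 1.28 and -0.21. Probes of the same accession also lay apart in Rps25, at 0.43 and 1.32, and in Rps15a, at 1.41 and 0.62. Ribosomal proteins have many processed copies in the mouse genome (303 pseudogene loci named after them in the RefSeq table), and the probe sequences were not analysed here, so cross-hybridisation between copies was not tested.

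The probes differed less in their cocaine coefficient. Its median was 0.16 over RefSeq mRNA probes and 0.11 over the others, with 93 of 98 and 18 of 23 above 0, and 0 of 121 passed limma's adjusted p in the fit on all probes, where 0.271% of all probes passed. The widest difference within a gene was that of Rps2, a protein of the messenger entry channel. Its 2 RefSeq mRNA probes stood at 0.39 and 0.29 and its clone probe at -0.38, which left the gene at 0.10 ± 0.17. For Rps18 the corresponding values were 0.32 and 0.26 against -0.19.

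The scanners recorded the dye effect at different sizes. In Agilent scans the member medians were 2.002 and 1.982 (log2 ratio, replicates 1 and 2) with cocaine in Cy5 and -1.32 and -1.93 with saline in Cy5. In Axon scans they were 0.65 and 0.95 with cocaine in Cy5 and -0.39 and -0.64 with saline in Cy5. The dye coefficient lay further towards Cy5 in Agilent scans for 67 of 68 genes. This count uses the sign, so it includes Rpl39l, whose negative coefficient was smaller in size in Agilent scans. The share over all genes was not counted. The number passing limma's adjusted p was 68 in Agilent scans alone, where 86.6% of all genes passed, and 13 in Axon scans alone, where 12.5% did. The median cocaine coefficient was 0.16 in Agilent and 0.14 in Axon scans alone, with 0 genes passing in either.

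Across all genes tested the cocaine coefficient was higher where the dye coefficient was higher, though not among the lowest bins. With all genes ordered by dye coefficient into 10 bins, 36 of the 68 ribosomal protein genes lay in bin 10, the highest, where the median cocaine coefficient was 0.17 for the members and 0.18 for all genes. A further 15 lay in bin 9, where it was 0.14 for both, and in bins 7 and 8, with 7 and 8 members, it was 0.082 and 0.15 for the members and 0.067 and 0.11 for all genes. Over all genes the medians of bins 1 to 4, the lowest, were -0.052, -0.061, -0.065 and -0.057, and those of bins 5 and 6 were -0.037 and 0.015. Rpl39l lay in bin 2 and Rpl3l in bin 5. Both coefficients come from the same 4 hybridisations. The part of the dye in the median of 0.15 was not tested beyond these values and the dye-profile value.

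**Figure D4:**
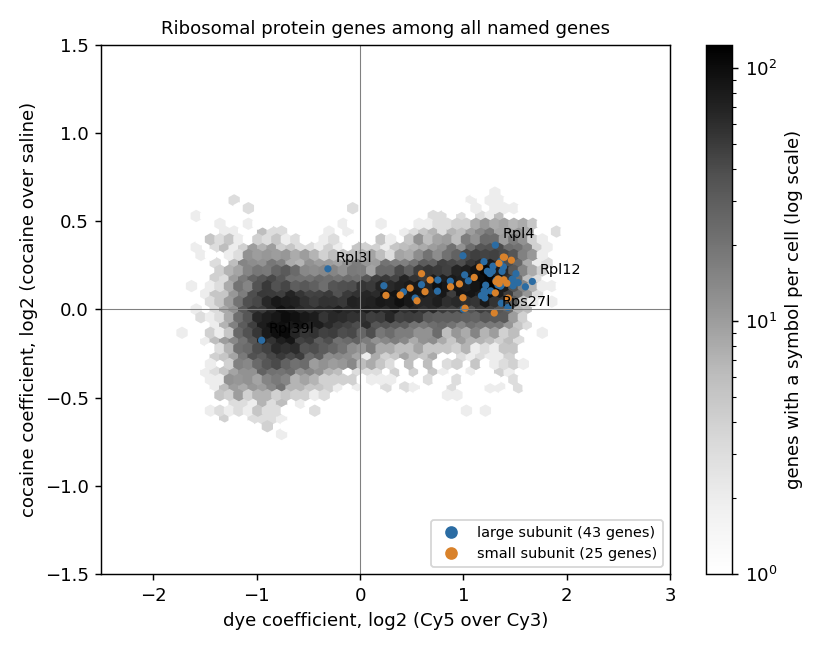
Cocaine coefficient (log2, cocaine over saline, vertical axis) against dye coefficient (log2, Cy5 over Cy3, horizontal axis); grey cells count genes with a symbol on a log scale, and coloured points are the 68 ribosomal protein genes. Most members lie at the right, with an interquartile range of 0.94 to 1.37, where the grey cloud itself lies above 0; Rpl39l and Rpl3l lie to the left. The few genes beyond the axes are not drawn, and cells with 1 gene appear white.

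In dye-profile values the hybridisations differed among themselves. The member median was 0.12 and -0.19 in replicates 1 and 2 with cocaine in Cy5, with 51 and 9 of 68 genes above 0, and -0.010 and 0.077 in replicates 1 and 2 with saline in Cy5, with 33 and 46 above 0. Only 8 of 68 genes had the same sign in all 4 hybridisations, against 19.1% of all genes. In 3 of 68 it was positive, against 9.57% of all genes, with coefficients of 0.16 for Rpl11, 0.11 for Rpl10a and 0.081 for Rpl29. In 5 of 68 it was negative, against 9.48% of all genes, namely Rpl22 at -0.17, Rpl14 at -0.14, Rps15a at -0.12, Rpl5 at -0.090 and Rpl7 at -0.063. None of the 68 had an unadjusted limma p below 0.05 in these values, against 7.25% of all genes, and the lowest adjusted limma p was 0.698.

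Among large-subunit genes, the difference between the 2 hybridisations with cocaine in Cy5 also varied with the number in the gene symbol. Ribosomal proteins were numbered from their positions on gels, broadly from large to small. The centred ratio was higher in replicate 1 than in replicate 2 for 7 of 26 genes numbered up to 14 (median difference -0.20), for 4 of 17 genes numbered 15 to 24 (-0.17), and for 12 of 25 genes numbered 25 and up (-0.018). Across the 43 large-subunit genes this difference correlated with the number at r = 0.49 (Spearman's rho 0.57), and across the 25 small-subunit genes at r = 0.11 (rho 0.11). With saline in Cy5, replicate 1 minus replicate 2 gave r = -0.099 and 0.11 in the same 2 sets. The cocaine coefficient correlated with the number at r = -0.45 in the large and 0.29 in the small subunit. The share of all genes with a higher ratio in replicate 1 was not counted. The genes share arrays and dyes, so these correlations are descriptions.

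Ribosomal proteins that the symbol rule leaves out were close to the members. Of 12 listed, 8 were measured, with a median cocaine coefficient of 0.16, and 0 passed limma's adjusted p in either direction. Rpsa, also known as the laminin receptor, stood at 0.27 ± 0.17, the stalk proteins Rplp0, Rplp1 and Rplp2 at 0.14 ± 0.18, 0.23 ± 0.17 and 0.14 ± 0.17, and Rpl36al at -0.067 ± 0.173. All 8 passed towards Cy5 for the dye, where 34.5% of all genes did. Their median dye coefficient was 1.26, the same as that of the members to 2 decimals.

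Genes that make, feed or control ribosomes were described from lists. Translation factors and other messages with TOP tracts had a median cocaine coefficient of 0.18 over 24 genes, ribosome biogenesis factors one of 0.18 over 29 genes, and mTOR signalling genes one of 0.13 over 16, with 0 passing limma's adjusted p in each direction on each list. Eef1a1, the factor that brings aminoacyl-tRNA to the ribosome, stood at 0.40 ± 0.19 (limma adjusted p = 0.822), and Eif3k, a subunit of initiation factor 3, at 0.38 ± 0.19 (0.824). Bop1, needed to process the large-subunit RNA, stood at 0.38 ± 0.18 (0.822), and fibrillarin, Fbl, which methylates ribosomal RNA, at 0.33 ± 0.18 (0.853). Mlst8, a subunit of the mTOR complexes, stood at 0.31 ± 0.18 (0.858), and Eif4ebp1, the initiation repressor that mTOR phosphorylates, at -0.23 ± 0.17 (0.876). In dye-profile values the medians of the 3 lists were 0.043, 0.023 and -7.87e-05.

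Mitochondrial ribosomal proteins and proteasome subunits, other sets of housekeeping complexes, had medians of 0.10 over 78 genes and 0.12 over 39 genes for cocaine, with 0 passing, and of 1.10 and 1.16 for the dye. Olfactory receptor genes, which are mostly silent in brain, had a median of -0.030 for cocaine and -0.80 for the dye over 896 genes. Of these, 788 passed towards Cy3, where 43.4% of all genes did, and 20 towards Cy5, where 34.5% did. The difference of the members from these sets was not tested.

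Markers of accumbens neurons and of other cells that dissection could include were described in the same way. Cortical projection neuron markers had a median cocaine coefficient of -0.52 over 11 genes. Of these, 3 were lower with cocaine (adjusted limma p below 0.05), where 0.0223% of all genes were. Among the 3 were Tbr1 at -1.45 ± 0.18 and Nrn1 at -1.71 ± 0.24 (limma adjusted p = 0.00602 and 0.0143). Medians were 0.28 for medium spiny neuron markers (10 genes, led by Ppp1r1b at 0.69 ± 0.19 and Adcy5 at 0.61 ± 0.20), -0.056 for oligodendrocytes (11), 0.093 for astrocytes (8), 0.014 for microglia (7), -0.021 for endothelium (8), -0.033 for choroid plexus and ependyma (6) and -0.046 for erythroid genes (4), with 0 passing on these lists. Coefficients were above 0 in 2 of 11 cortical, 10 of 10 medium spiny neuron, 4 of 11 oligodendrocyte, 6 of 8 astrocyte, 4 of 7 microglial, 4 of 8 endothelial, 3 of 6 choroid plexus and ependymal, and 2 of 4 erythroid genes. Of the last 6 lists, the members of smallest p were Aspa (-0.39) and Mog (-0.24), Aldh1l1 (0.33) and Aldoc (0.23), Trem2 (0.23) and Tmem119 (0.10), Kdr (-0.30) and Esam (0.18), Clic6 (0.37) and Folr1 (-0.25), and Hbb-bt (-0.23) and Alas2 (-0.12), in that order. The cortical list had a median cocaine coefficient of -0.47 in dye-profile values, and 0 of its genes passed limma's adjusted p there, as did 0 of all genes. Dye-profile medians of the oligodendrocyte list were -0.52 and 0.14 in replicates 1 and 2 with cocaine in Cy5 and -0.44 and -0.11 with saline in Cy5. The part of cell composition in the ribosomal protein ratios was not tested, and in bulk RNA fewer cells of a type cannot be told apart from less RNA per cell.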

How the data were processed

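The deposited table holds ratios of both channels, read as log2, in 8 scans of 44290 rows. The sources used here do not describe image analysis, background correction or normalization by the authors. Between 4 and 37 values per scan of size 16.6 or more were treated as missing. Scan medians lay between -0.885 and -0.617 with cocaine in Cy5 and between 0.637 and 0.823 with saline in Cy5. With the inferred layout 32042 rows had 1 gene symbol, 47 several and 12201 none, and all 121 member probes matched the RefSeq gene table by gene identifier. Scans were median-centred, probes averaged per symbol and scans averaged per hybridisation. Fits used limma 3.58.1 in R 4.3.3 (lmFit, eBayes, two-sided) and were tested on simulated data. The main fit had 2 residual and 15.9 prior degrees of freedom. The dye profile is the mean Cy5 over Cy3 log2 ratio over the Agilent scans, 2 of each orientation, so treatment cancels from it, and each scan was fitted along it by loess (span 0.3, 4 iterations). Genes, lists and tests were chosen with earlier results of these data known, and the Diamond-Blackfan list, the 5S RNA pair, the fit on all probes and the split by probe accession after the values. The 35 named members are the 10 of smallest p (all above 0, so every member below 0 was added, 2 in all), the 5 highest and 5 lowest for the dye, paralogues with their parent genes, a panel of 4 and genes with 3 or more probes. The names Rpl5, Rpl22 and others below that rule were chosen after their values were seen, as were the start sequences shown.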

Additional observations from a re-analysis of the deposited data

Results flagged for a closer look

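The ribosomal protein ratios differed between the hybridisations with cocaine in Cy5 and those with saline in Cy5, with a median dye coefficient of 1.26 on the log2 scale over 68 genes, and 65 of the 68 passed limma's adjusted p of 0.05 for it in either direction, where 77.9% of all genes passed. In dye-profile values, none of the 35 named members had 1 hybridisation that stood apart from the other 3 by Dixon's 95% criterion, where chance gives about 1.75 such sets.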

How the results depend on the processing

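No ribosomal protein gene passed for cocaine under any of the 12 alternatives, of which the fit on RefSeq mRNA probes alone was chosen after seeing the data. The lowest adjusted limma p ranged from 0.525 to 1 over them. The median cocaine log2 ratio lay between -0.0032 (dye-profile loess) and 0.21 (without saline in Cy5 replicate 2). It was 0.073 without saline in Cy5 replicate 1, when 56 of 68 genes were above 0. The number of members whose coefficient lay on the other side of 0 was 33 under the dye-profile loess, 13 with scans scaled to equal spread, 5 with Axon scans alone and at most 10 without 1 hybridisation. Without 1 hybridisation, an orientation keeps a single array. Each of the 35 named members then had the same limma standard error, 0.23 without a cocaine in Cy5 array and 0.25 without a saline in Cy5 array. Such fits hold none of a gene's own spread. Over all genes the number passing for cocaine was 8 in the main fit. It was 0 under the dye-profile loess, with Axon scans alone, with scaled scans and without the dye coefficient. It was 20 with Agilent scans alone, 25 with named genes alone, 30 with the median of probes and 77 with RefSeq mRNA probes alone. The number of members passing for dye was 13 with Axon scans alone, with a median dye log2 ratio of 0.67, and the median was 1.86 with Agilent scans alone. In dye-profile values that number was 0 and the median -0.020, since the loess removes the dye effect by construction. In the other alternatives that were fitted with a dye coefficient between 61 and 67 members passed for dye, where 63.1% to 80% of all genes did, Agilent scans alone excepted (68 members). Each ratio already pairs a cocaine with a saline sample, and no further replicate block could be fitted because the replicate numbers only name hybridisations in order of accession. With no intensities, signal over background could not be set beside any ratio.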
